A study of Mus musculus with 36 samples.

Results

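This account follows 45 genes of bone morphogenetic protein (BMP), nodal and transforming growth factor beta (TGF-beta) signalling through mouse embryonic stem cells (ESC) and neural precursor cells (NPC) of 3 genotypes. The genes are a list of symbols, and no measured value enters the rule, though the list was drawn up with earlier results of these data known: 11 BMP and GDF ligands, 8 activin, nodal, lefty and TGF-beta ligands, 10 receptors, 7 SMAD genes, 4 Id genes and 5 extracellular antagonists. All 45 were among the 51734 gene symbols of the count table, and 44 of them were among the 20511 genes that passed a filter on low counts. Gdf7, the gene that did not pass, had 8 counts or fewer in every group.

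The series asked how the catalytic activity of the histone H3K4 methyltransferases MLL3 and MLL4, encoded by Kmt2c and Kmt2d, bears on gene expression during neural differentiation. It lists 36 mRNA-seq samples, of which 18 in 6 groups of 3 are used here. All come from E14, an established line of mouse ESC. The WT group carries no edit named in the labels, the dCD group carries MLL3 and MLL4 without catalytic activity. In the MLL2dTAG group MLL2, encoded by Kmt2b, carries a dTAG degron, which lets the small molecule dTAG-13 send the tagged protein for destruction. Each genotype was sampled as ESC, grown with LIF and serum replacement, and as NPC, made with retinoic acid (RA). All 6 groups, WT included, are labelled as treated with dTAG-13. The protocol gives 2 µM, for NPC from day 1 of differentiation with harvest on day 4. No duration of treatment for ESC was given in the sources used here. Each genotype is a line of its own, so the edit and a difference between lines cannot be told apart. The labels do not say whether the 3 replicates of a group were separate cultures, so the p-values measure the spread between these libraries, which may be technical.

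Ligands of this family bind pairs of type I and type II serine/threonine kinase receptors. BMP receptors phosphorylate SMAD1, SMAD5 and SMAD9, activin, nodal and TGF-beta receptors phosphorylate SMAD2 and SMAD3, and both sets enter the nucleus with SMAD4. Id genes are widely used transcript readouts of BMP signalling, Lefty1, Lefty2 and Smad7 are readouts and feedback inhibitors of the nodal and TGF-beta side, and secreted antagonists such as noggin, chordin, gremlin and follistatin hold ligands away from their receptors. In ESC cultures BMP acts with LIF to hold back neural differentiation, and BMP and nodal inhibition both favour the neural fate.

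Upstream sequence is shown for 3 members on which the results turn: Grem1 and Tgfbr2, which were higher in both mutant lines at both stages, and Bmp4, which was higher in both lines as ESC. Each is the 250 bases before the RefSeq transcription start (GRCm38.p6), written 5′ to 3′ on the gene's strand, and none overlaps an annotated exon. Capitals mark matches on either strand to GTCTG (or CAGAC), the core of the SMAD binding element, and to GGCGCC, a GC-rich motif bound by BMP SMADs. The matches do not overlap each other.
Grem1, chr2:113758649-113758898, minus strand: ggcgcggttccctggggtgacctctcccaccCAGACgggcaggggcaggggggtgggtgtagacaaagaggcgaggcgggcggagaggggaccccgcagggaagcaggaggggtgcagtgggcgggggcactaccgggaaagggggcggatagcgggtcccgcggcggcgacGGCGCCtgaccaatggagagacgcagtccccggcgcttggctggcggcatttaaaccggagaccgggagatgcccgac
Tgfbr2, chr9:116175364-116175613, minus strand: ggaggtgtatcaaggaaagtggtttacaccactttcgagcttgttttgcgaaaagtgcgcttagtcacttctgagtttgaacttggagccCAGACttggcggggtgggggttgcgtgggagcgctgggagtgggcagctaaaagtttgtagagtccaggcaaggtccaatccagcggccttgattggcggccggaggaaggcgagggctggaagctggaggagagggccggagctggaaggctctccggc
Bmp4, chr14:46390670-46390919, minus strand: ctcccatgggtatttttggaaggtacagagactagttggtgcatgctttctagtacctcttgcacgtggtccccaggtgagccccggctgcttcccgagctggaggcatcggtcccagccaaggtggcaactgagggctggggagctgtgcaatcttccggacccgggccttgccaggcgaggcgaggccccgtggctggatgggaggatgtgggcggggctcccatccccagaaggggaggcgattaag
The Grem1 window held 1 match to GTCTG and 1 to GGCGCC, the Tgfbr2 window held 1 match to GTCTG, and the Bmp4 window held none of either. Among 31 members with an entry in the RefSeq table, 14 had GTCTG and 8 had GGCGCC in at least 1 window. Over all 32851 promoters of the same length, 42.2% held GTCTG and 9.59% held GGCGCC. The members were counted per gene, over any of its windows, and the background per promoter, so the shares are not directly comparable.

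Values are in CPM, counts scaled to the library's size after TMM normalization. Total counts ran from 19.4 M to 46.0 M per library, so that 3 counts, the floor used here, equal 0.0652 to 0.154 CPM. In group means, Kmt2b stood at 172 to 212 CPM, Kmt2c at 166 to 322 CPM and Kmt2d at 185 to 264 CPM, which do not check the labels because neither edit need lower the transcript. The MLL2dTAG libraries stood apart by their Y-linked genes: Eif2s3y stood at 2.85 CPM in MLL2dTAG ESC and 0.118 CPM in MLL2dTAG NPC, against 64.5 to 77.6 CPM in the other groups. The stem cell markers Pou5f1 and Nanog stood at 487 to 623 CPM in the ESC groups, and the neural markers Pax6, Nes and Zic1 at 12.2 to 231 CPM in the NPC groups. Nes also stood at 55.9 to 67.7 CPM in the ESC groups. Hes5 was under 1 CPM in all groups, and Sox1 was no higher than 7.33 CPM in NPC, against 11.7 CPM in MLL2dTAG ESC. The 6 neuron genes listed summed to 347 to 422 CPM in WT ESC and 259 to 263 CPM in WT NPC, where 5 were called higher and 1 lower. The NPC libraries also held endoderm transcripts, such as Gata6 at 127 to 219 CPM, and mesenchymal transcripts, with Col3a1 at 295 to 716 CPM, Col1a1 at 99.8 to 195 CPM and Col1a2 at 21.3 to 178 CPM. Of the 8 mesoderm and mesenchyme genes tested, 3 were higher and 4 lower in WT NPC than in WT ESC. In such bulk libraries, fewer cells of a type and less RNA per cell cannot be told apart.

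Against WT, members more often rose than fell in both lines and at both stages. Changes were tested with edgeR's quasi-likelihood test over all genes, and a gene was called at a Benjamini-Hochberg adjusted p under 0.05. In dCD ESC, 30 of 44 members were called, 23 higher and 7 lower, where 48.3% of all genes were called, 25.7% higher and 22.6% lower. In MLL2dTAG ESC, 28 members were called, 17 higher and 11 lower, against 56.9% of all genes, 28.7% higher and 28.2% lower. Members' median log2 fold change was 0.26 in dCD ESC and 0.094 in MLL2dTAG ESC, where the medians of all genes were 0.023 and -0.001.

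In dCD NPC, 35 of 44 members were called, 23 higher and 12 lower, where 53.5% of all genes were called, 26.7% higher and 26.8% lower. In MLL2dTAG NPC, 40 members were called, 32 higher and 8 lower, against 61.7% of all genes, 33.3% higher and 28.4% lower. The median log2 fold change of members was 0.22 in dCD NPC and 0.40 in MLL2dTAG NPC, where all genes had -0.017 and 0.028. The 2 comparisons at a stage share their WT libraries. The split in MLL2dTAG ESC moved with the processing, to 21 higher and 7 lower of 28 without the filter on low counts and to 21 higher and 8 lower of 29 with offsets for GC content and exon length. Those offsets moved the split of all genes the same way, from 5889 higher and 5787 lower to 7026 and 5017, and without the filter it was 6565 and 5043. In MLL2dTAG NPC, library totals as the only scaling turned the split of all genes from 6840 higher and 5825 lower to 5733 and 6814, and that of members was then 31 higher and 8 lower.

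**Figure D1:**
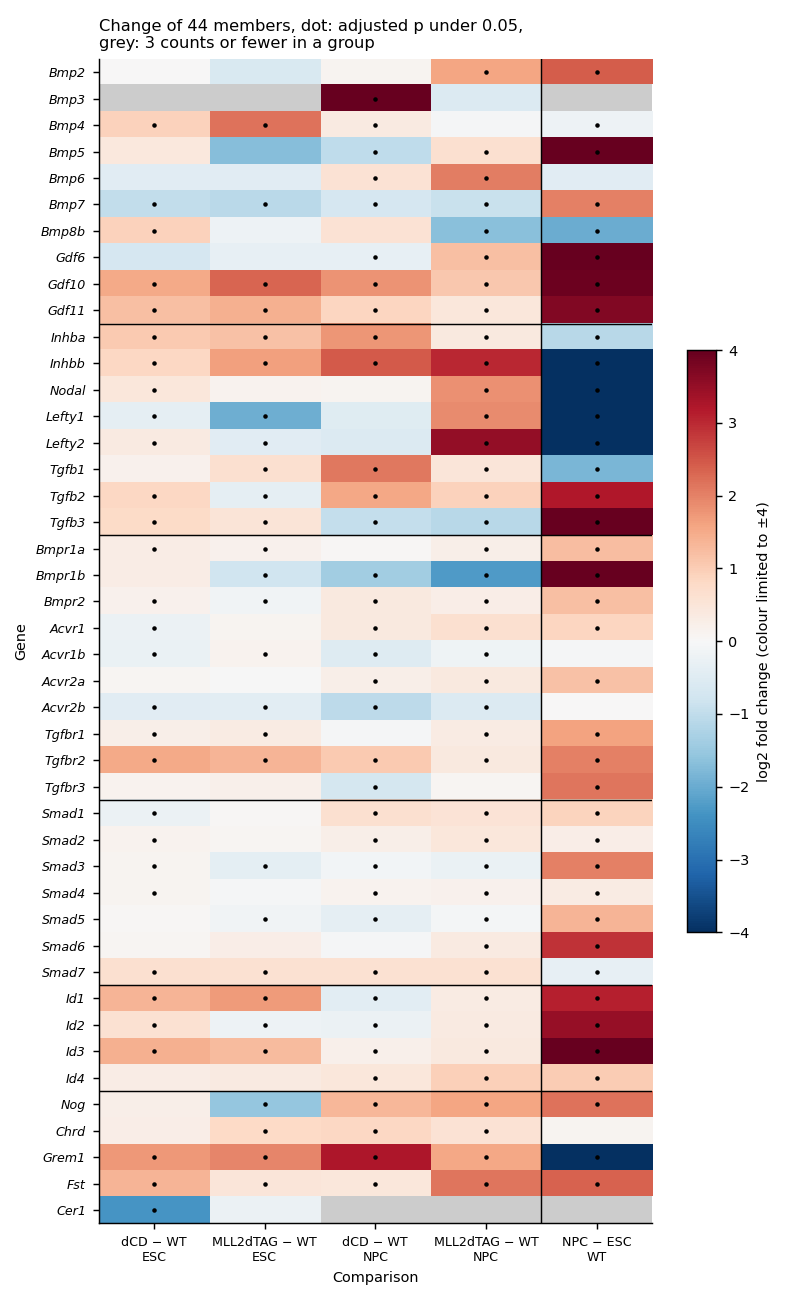
Log2 fold changes of the 44 members that passed the filter (rows, in blocks of BMP and GDF ligands, other ligands, receptors, SMAD genes, Id genes and antagonists) in 5 comparisons (columns), with red for higher and blue for lower in the first group and a dot where the adjusted p was under 0.05. Grem1 and Inhbb are red in all 4 columns against WT, the Id genes are red in the column of NPC against ESC, and grey cells have 3 counts or fewer in a group.

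Differentiation itself moved most of the family. In WT, 40 of 44 members differed between NPC and ESC, 29 higher and 11 lower in NPC, where 79.5% of all genes were called, 39.1% higher and 40.4% lower. The median log2 fold change of members was 1.21, against -0.037 over all genes. All 4 Id genes, 8 of 10 receptors, 6 of 7 SMAD genes and 7 of 10 tested BMP and GDF ligands rose, of which Smad2 turned to -0.23 on the log2 scale with offsets for GC content and length, while 6 of 8 activin, nodal, lefty and TGF-beta ligands fell. Per kilobase of annotated exon, the scale on which genes are compared here, the highest members in WT ESC were Lefty1 (41.1 CPM per kb), Smad4 (31.7), Nodal (25.6) and Lefty2 (20.7). In WT NPC they were Id3 (109 CPM per kb), Id2 (64.9), Id1 (60.7) and Bmpr1a (47.9). In dCD 42 members differed between NPC and ESC, 31 higher and 11 lower, against 77.6% of all genes, and in MLL2dTAG 42, 30 higher and 12 lower, against 78.2%.

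Of the 10 BMP and GDF ligands tested, 5 were called in dCD ESC (4 higher and 1 lower), 4 in MLL2dTAG ESC (3 higher and 1 lower), 8 in dCD NPC (5 higher and 3 lower) and 8 in MLL2dTAG NPC (6 higher and 2 lower). The shares called were 50%, 40%, 80% and 80%, where all genes had 48.3%, 56.9%, 53.5% and 61.7%, so that in dCD ESC the share was near that of all genes and in MLL2dTAG ESC below it. Bmp4 rose in both mutant ESC lines and Bmp7 was lower in every mutant group. Bmp4 (chr14:46383520-46390669, minus strand, GRCm38) encodes a ligand that acts in early mesoderm and dorsal neural tissue. In ESC, Bmp4 stood at 24.4, 22.8 and 24.4 CPM in WT, 44.6, 44.3 and 46.7 CPM in dCD and 104, 104 and 110.3 CPM in MLL2dTAG. In NPC it stood at 20.4, 21.7 and 20.03 CPM in WT, 25.5, 25.8 and 27.8 CPM in dCD and 22.5, 19.1 and 18.6 CPM in MLL2dTAG. The ESC groups were ordered WT, dCD and MLL2dTAG with no overlap, and in NPC only dCD stood clear of WT. Bmp4 was 1.9-fold higher in dCD ESC (log2 fold change 0.93, SE 0.062, adjusted p = 1.5e-14) and 4.46-fold higher in MLL2dTAG ESC (log2 fold change 2.16, SE 0.059, adjusted p = 4.87e-26). It was 1.27-fold higher in dCD NPC (log2 fold change 0.35, SE 0.062, adjusted p = 1.23e-05), and the value in MLL2dTAG NPC did not pass the test (log2 fold change -0.051, SE 0.064, adjusted p = 0.511). Between WT NPC and WT ESC Bmp4 was 1.15-fold lower, a call that did not hold with library totals as the only scaling, without the filter on low counts or with offsets for GC content and length, with adjusted p of 0.00376 to 0.517 over all alternatives.

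Bmp7 encodes a ligand made in many epithelia and in the dorsal neural tube. It stood at 25.8, 22.5 and 23.4 CPM in WT, 11.4, 13.1 and 11.7 CPM in dCD and 12.1, 11.5 and 10.4 CPM in MLL2dTAG as ESC. As NPC it stood at 93.5, 98.4 and 95 CPM in WT, 61.2, 58.7 and 61.8 CPM in dCD and 53.2, 50.9 and 49.2 CPM in MLL2dTAG. Both mutant groups lay below WT at both stages, and the 2 mutant ESC groups overlapped each other. Bmp7 was 1.97-fold lower in dCD ESC (log2 fold change -0.98, SE 0.072, adjusted p = 1.22e-13) and 2.11-fold lower in MLL2dTAG ESC (log2 fold change -1.07, SE 0.069, adjusted p = 1.39e-15). In NPC it was 1.58-fold lower in dCD NPC (log2 fold change -0.66, SE 0.05, adjusted p = 1.02e-13) and 1.87-fold lower in MLL2dTAG NPC (log2 fold change -0.91, SE 0.05, adjusted p = 1.14e-17). In WT it was 4.03-fold higher in NPC than in ESC (log2 fold change 2.01, SE 0.057, adjusted p = 3.44e-27). The 8 surface ectoderm and trophoblast markers listed, the epithelial keratins Krt8 and Krt18 among them, summed to 55.5 to 67.3 CPM in WT, 62.4 to 65.9 CPM in dCD and 17.3 to 18.1 CPM in MLL2dTAG ESC. In NPC the sums of these markers were 397 to 404 CPM in WT, 296 to 308 CPM in dCD and 227 to 244 CPM in MLL2dTAG. Of the 8, 1 was called higher and 3 lower in MLL2dTAG ESC, 2 higher and 0 lower in dCD ESC, 1 higher and 4 lower in dCD NPC and 2 higher and 3 lower in MLL2dTAG NPC. Krt8 and Krt18 made up most of each sum. They stood at 23.1 and 37.6 CPM in WT ESC and at 9.95 and 5.5 CPM in MLL2dTAG ESC. In NPC they stood at 142 and 249 CPM in WT, 112 and 183 CPM in dCD and 106 and 115 CPM in MLL2dTAG. Krt5 was under 1 CPM in every group. The part of cells with these keratins in the values of Bmp7 was not tested.

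Bmp3, whose product is known to antagonise other BMPs, was above 1 CPM only in dCD NPC. The ESC libraries held 2 counts in WT, both in replicate 3, and none in dCD or MLL2dTAG, so no fold is given there. In NPC, Bmp3 stood at 0.443, 0.533 and 0.726 CPM in WT, 23.1, 24.2 and 21.4 CPM in dCD and 0.297, 0.397 and 0.47 CPM in MLL2dTAG. All dCD libraries stood far above the others, and the gene was 39.9-fold higher in dCD NPC than in WT NPC (log2 fold change 5.32, SE 0.18, adjusted p = 7.29e-22). The MLL2dTAG value did not pass the test (log2 fold change -0.54, SE 0.31, adjusted p = 0.131). Against dCD ESC, taken at a floor of 3 counts over the group, dCD NPC was at least 569-fold higher. In WT the ratio of NPC to ESC was 22.4 with an exact 95% interval for counts of 5.94 to 189, which covers counting error only.

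Bmp2, Bmp5 and Bmp6 rose in MLL2dTAG NPC. Bmp2, the closest relative of Bmp4, spanned 0.213 to 0.995 CPM over the 9 ESC libraries. Its NPC levels were 3.54, 3.57 and 3.18 CPM in WT, 4.05, 3.75 and 3.29 CPM in dCD and 9.02, 10.4 and 11.2 CPM in MLL2dTAG, with MLL2dTAG above both other groups. It was 2.98-fold higher in MLL2dTAG NPC (log2 fold change 1.57, SE 0.16, adjusted p = 1.53e-10), and no ESC comparison passed. Bmp6 stood at 1.97, 1.43 and 1.73 CPM in WT, 1.49, 1.12 and 1.12 CPM in dCD and 1.21, 1.37 and 1.12 CPM in MLL2dTAG in ESC. The NPC libraries gave 1.39, 1.3 and 1.01 CPM in WT, 2.12, 1.66 and 1.73 CPM in dCD and 4.89, 5.56 and 4.93 CPM in MLL2dTAG, and MLL2dTAG was the highest group. Bmp6 was 4.16-fold higher in MLL2dTAG NPC (log2 fold change 2.06, SE 0.18, adjusted p = 4.44e-12) and 1.49-fold higher in dCD NPC (log2 fold change 0.57, SE 0.21, adjusted p = 0.0183), and the dCD call did not hold without NPC WT replicate 3 or NPC dCD replicate 1, with adjusted p of 0.0153 to 0.109 over all alternatives. Bmp5, a ligand of the BMP7 subgroup, spanned 0 to 0.298 CPM in ESC. In NPC the values were 6.9, 7.03 and 7.26 CPM in WT, 3.71, 3.67 and 3.11 CPM in dCD and 11.2, 11 and 10.6 CPM in MLL2dTAG, so that dCD lay below WT and MLL2dTAG above it. It was 2.02-fold lower in dCD NPC (log2 fold change -1.01, SE 0.15, adjusted p = 2.35e-07) and 1.55-fold higher in MLL2dTAG NPC (log2 fold change 0.63, SE 0.13, adjusted p = 6.34e-05). Of its annotated exon bases, 46.7% are shared with an antisense gene, and the sources used here do not say whether counting used strand.

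Among the growth differentiation factors, Gdf11 and Gdf10 rose in every mutant group. Gdf11, a ligand of the activin side that acts in axial patterning and neurogenesis, stood at 3.57, 3.91 and 3.67 CPM in WT, 8.79, 8.12 and 8.84 CPM in dCD and 9.49, 10.2 and 10.5 CPM in MLL2dTAG in ESC. Its NPC values were 49, 49.5 and 48.5 CPM in WT, 89.4, 89.5 and 86.2 CPM in dCD and 62.5, 67 and 70.4 CPM in MLL2dTAG. No mutant library overlapped WT at its stage. Gdf11 was 2.3-fold higher in dCD ESC (log2 fold change 1.20, SE 0.099, adjusted p = 2e-12) and 2.71-fold higher in MLL2dTAG ESC (log2 fold change 1.44, SE 0.092, adjusted p = 1.08e-15). As NPC it was 1.8-fold higher in dCD NPC (log2 fold change 0.85, SE 0.048, adjusted p = 3.4e-17) and 1.36-fold higher in MLL2dTAG NPC (log2 fold change 0.44, SE 0.048, adjusted p = 4.89e-10).

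Gdf10, a relative of Bmp3, was under 1 CPM in every ESC library, at 0 to 0.783 CPM. NPC libraries held 1.33, 1.65 and 1.79 CPM in WT, 5.09, 5.02 and 6.39 CPM in dCD and 3.62, 3.44 and 2.97 CPM in MLL2dTAG, highest in dCD and lowest in WT. It was 3.44-fold higher in dCD NPC (log2 fold change 1.78, SE 0.21, adjusted p = 3.24e-09) and 2.09-fold higher in MLL2dTAG NPC (log2 fold change 1.07, SE 0.21, adjusted p = 4.53e-05). In ESC the log2 fold change was 2.33 (SE 0.53, adjusted p = 0.000272) in MLL2dTAG and 1.51 (SE 0.62, adjusted p = 0.0447) in dCD. The dCD ESC call did not hold without ESC WT replicate 1 or 2 or 3 or ESC dCD replicate 1 or 2, without the filter on low counts or with halved counts, with adjusted p of 0.0272 to 0.19 over all alternatives. Gdf6, a ligand of the dorsal neural tube and skeleton, spanned 0.068 to 0.464 CPM in ESC and stood in NPC at 15.9, 18.5 and 16.7 CPM in WT, 11.8, 14.1 and 14.8 CPM in dCD and 39.8, 37.7 and 39.3 CPM in MLL2dTAG. MLL2dTAG NPC stood clear above WT and dCD NPC below it, with Gdf6 2.28-fold higher in the former (log2 fold change 1.19, SE 0.092, adjusted p = 9.94e-14) and 1.26-fold lower in the latter (log2 fold change -0.33, SE 0.099, adjusted p = 0.00534). The dCD call did not hold without NPC dCD replicate 1, with adjusted p of 0.000965 to 0.0585 over all alternatives. Bmp8b, which stayed under 5 CPM in all libraries, rose in dCD ESC by 0.93 (SE 0.22, adjusted p = 0.000543) on the log2 scale and had -1.67 (SE 0.39, adjusted p = 0.000334) in MLL2dTAG NPC. Its sequence is close to that of Bmp8a, so reads of the pair may be split between them.

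**Figure D2:**
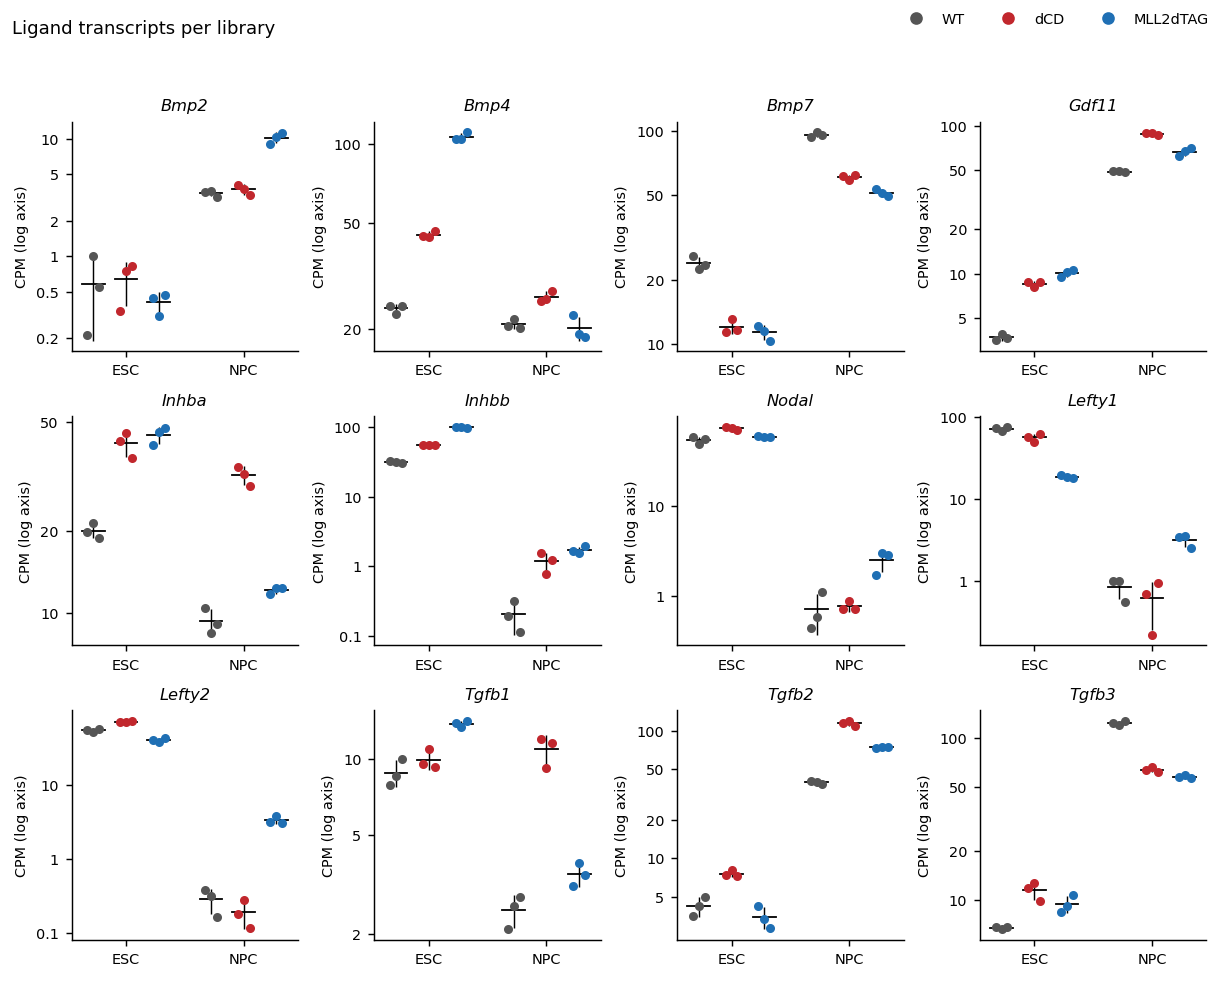
CPM of 12 ligand genes on log axes in the 3 libraries (points) of WT, dCD and MLL2dTAG as ESC (left) and NPC (right), with the group mean (horizontal line) and SD (vertical line). Bmp4 lies at 104 to 110.3 CPM in MLL2dTAG ESC, and Nodal, Lefty1 and Lefty2 stand below 4 CPM in all NPC libraries but are highest there in MLL2dTAG.

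Of the 8 activin, nodal, lefty and TGF-beta ligands, 7 were called in each mutant ESC comparison (6 higher and 1 lower in dCD, 4 higher and 3 lower in MLL2dTAG), 5 in dCD NPC (4 higher and 1 lower) and 8 in MLL2dTAG NPC (7 higher and 1 lower). The shares called were 87.5%, 87.5%, 62.5% and 100%, where all genes had 48.3%, 56.9%, 53.5% and 61.7%. The share in dCD NPC was the nearest to that of all genes. Nodal and the lefty genes fell steeply from ESC to NPC and were higher in MLL2dTAG NPC than in WT NPC. Nodal (chr10:61417972-61425338, plus strand, GRCm38) encodes the ligand of mesendoderm formation, and Lefty1 and Lefty2, which lie near each other on chromosome 1, encode its feedback inhibitors. Nodal stood at 58.2, 48 and 54.5 CPM in WT, 75.8, 72.4 and 69.8 CPM in dCD and 59.7, 58.4 and 57.6 CPM in MLL2dTAG in ESC. Its NPC values were 0.443, 0.586 and 1.09 CPM in WT, 0.705, 0.883 and 0.704 CPM in dCD and 1.72, 2.98 and 2.82 CPM in MLL2dTAG, with MLL2dTAG alone above WT. Nodal was 1.36-fold higher in dCD ESC (log2 fold change 0.45, SE 0.074, adjusted p = 4.36e-06) and 3.57-fold higher in MLL2dTAG NPC (log2 fold change 1.83, SE 0.22, adjusted p = 5.83e-09). The other 2 values were 0.13 (adjusted p = 0.122) in MLL2dTAG ESC and 0.10 (adjusted p = 0.803) in dCD NPC on the log2 scale.

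Lefty1 stood at 74.3, 67 and 75.3 CPM in WT, 57.3, 50.4 and 61.9 CPM in dCD and 19.5, 18.6 and 18.3 CPM in MLL2dTAG in ESC. After differentiation it stood at 1.01, 1.01 and 0.559 CPM in WT, 0.705, 0.221 and 0.939 CPM in dCD and 3.41, 3.53 and 2.56 CPM in MLL2dTAG. MLL2dTAG was thus the lowest group as ESC and the highest as NPC. Lefty1 was 3.84-fold lower in MLL2dTAG ESC (log2 fold change -1.94, SE 0.089, adjusted p = 1.29e-19), 1.28-fold lower in dCD ESC (log2 fold change -0.35, SE 0.083, adjusted p = 0.000563) and 3.69-fold higher in MLL2dTAG NPC (log2 fold change 1.88, SE 0.22, adjusted p = 2.27e-09). Lefty2 stood at 54.4, 51.4 and 56.6 CPM in WT, 69.6, 68.6 and 72 CPM in dCD and 39.6, 37.6 and 42.1 CPM in MLL2dTAG in ESC. It stood in NPC at 0.38, 0.32 and 0.168 CPM in WT, 0.184, 0.276 and 0.117 CPM in dCD and 3.11, 3.73 and 3.03 CPM in MLL2dTAG. It too was lowest in MLL2dTAG as ESC and highest there as NPC, but dCD ESC lay above WT. Lefty2 was 11.5-fold higher in MLL2dTAG NPC (log2 fold change 3.52, SE 0.21, adjusted p = 7.83e-17), with log2 fold changes of -0.44 (SE 0.062, adjusted p = 1.39e-07) in MLL2dTAG ESC and 0.37 (SE 0.061, adjusted p = 3.37e-06) in dCD ESC. The 2 genes are near copies, so reads of one may have been counted for the other.

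As a sum, the stem cell markers were higher in MLL2dTAG than in WT at both stages, while the lefty genes were lower in MLL2dTAG ESC. In ESC the 8 pluripotency genes listed summed to 2292 to 2486 CPM in WT, 2260 to 2354 CPM in dCD and 2759 to 2857.5 CPM in MLL2dTAG. Of the 8, 5 were called higher and 2 lower in MLL2dTAG ESC, and 2 higher and 4 lower in dCD ESC. In NPC these genes summed to 23.1 to 24.1 CPM in WT, 35.4 to 37.8 CPM in dCD and about 135 CPM in each MLL2dTAG library. Klf4 was the largest part of each sum, at 14.0 CPM in WT, 26.6 CPM in dCD and 56.3 CPM in MLL2dTAG NPC. Of the 8, 2 were called higher and 0 lower in dCD NPC. In MLL2dTAG NPC 7 of the 8 rose and none fell. Pou5f1 stood at 26.9 CPM there and at 1.01 CPM in WT NPC, while Dppa3 had no count in any NPC library. The 7 endoderm genes summed to 213 to 221 CPM in WT, 184 to 189 CPM in dCD and 541 to 559.8 CPM in MLL2dTAG NPC, where all 7 rose. The part of these cells in the values of Nodal, Lefty1, Lefty2, Bmp2 and Bmp6 was not tested.

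The activin subunit genes rose in both lines at both stages. Inhba, which encodes the beta A subunit of activin A, stood at 19.9, 21.3 and 18.9 CPM in WT, 42.8, 45.7 and 36.9 CPM in dCD and 41.1, 46 and 47.4 CPM in MLL2dTAG in ESC. As NPC it stood at 10.4, 8.47 and 9.11 CPM in WT, 34.4, 32.3 and 29.3 CPM in dCD and 11.7, 12.4 and 12.4 CPM in MLL2dTAG. Every mutant library lay above every WT library of its stage, and dCD NPC lay well above MLL2dTAG NPC. Inhba was 2.08-fold higher in dCD ESC (log2 fold change 1.06, SE 0.079, adjusted p = 2.14e-13) and 2.24-fold higher in MLL2dTAG ESC (log2 fold change 1.16, SE 0.077, adjusted p = 3.18e-15). In NPC it was 3.44-fold higher in dCD NPC (log2 fold change 1.78, SE 0.084, adjusted p = 2.33e-19) and 1.31-fold higher in MLL2dTAG NPC (log2 fold change 0.39, SE 0.092, adjusted p = 0.000354). Inhbb, which encodes the beta B subunit, stood at 32, 31.9 and 30.4 CPM in WT, 54.8, 54.9 and 55.8 CPM in dCD and 98.9, 101 and 96.1 CPM in MLL2dTAG in ESC. The 3 NPC groups gave 0.19, 0.32 and 0.112 CPM in WT, 1.53, 0.773 and 1.23 CPM in dCD and 1.66, 1.55 and 1.93 CPM in MLL2dTAG. The ESC groups were ordered WT, dCD and MLL2dTAG without overlap, and in NPC both mutant groups, all under 2 CPM, lay above WT. Inhbb was 1.76-fold higher in dCD ESC (log2 fold change 0.81, SE 0.065, adjusted p = 8.51e-13) and 3.15-fold higher in MLL2dTAG ESC (log2 fold change 1.65, SE 0.062, adjusted p = 4.06e-22). In NPC it was 5.48-fold higher in dCD (log2 fold change 2.46, SE 0.30, adjusted p = 9.18e-09) and 8.01-fold higher in MLL2dTAG (log2 fold change 3.001, SE 0.27, adjusted p = 4.26e-12).

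The 3 TGF-beta genes parted in NPC: Tgfb1 and Tgfb2 rose in both lines and Tgfb3 fell in both. Tgfb1, a TGF-beta ligand with roles in immune and vascular tissue, stood at 7.88, 8.59 and 9.99 CPM in WT, 9.56, 11 and 9.32 CPM in dCD and 14, 13.5 and 14.2 CPM in MLL2dTAG in ESC. In NPC it stood at 2.09, 2.58 and 2.82 CPM in WT, 12.1, 9.27 and 11.6 CPM in dCD and 3.11, 3.86 and 3.44 CPM in MLL2dTAG, with dCD clear above both other groups. Tgfb1 was 4.36-fold higher in dCD NPC (log2 fold change 2.12, SE 0.13, adjusted p = 2.48e-16), 1.39-fold higher in MLL2dTAG NPC (log2 fold change 0.48, SE 0.15, adjusted p = 0.00509) and 1.57-fold higher in MLL2dTAG ESC (log2 fold change 0.65, SE 0.11, adjusted p = 4.52e-06). In dCD ESC it did not pass (log2 fold change 0.16, SE 0.12, adjusted p = 0.26).

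Tgfb2, a TGF-beta ligand of neural crest and heart development, stood at 3.51, 4.21 and 5 CPM in WT, 7.43, 8.12 and 7.31 CPM in dCD and 4.21, 3.35 and 2.85 CPM in MLL2dTAG in ESC. Its NPC values were 40.7, 39.6 and 38.6 CPM in WT, 115, 119.8 and 109 CPM in dCD and 73.9, 74.7 and 74.2 CPM in MLL2dTAG, ordered WT, MLL2dTAG and dCD. Tgfb2 was 1.76-fold higher in dCD ESC (log2 fold change 0.81, SE 0.11, adjusted p = 2.16e-07), 2.89-fold higher in dCD NPC (log2 fold change 1.53, SE 0.056, adjusted p = 1.25e-22) and 1.87-fold higher in MLL2dTAG NPC (log2 fold change 0.91, SE 0.056, adjusted p = 2.51e-16). In MLL2dTAG ESC its log2 fold change was -0.35 (SE 0.13, adjusted p = 0.0198), with libraries that overlapped WT. That call did not hold without ESC WT replicate 3 or ESC MLL2dTAG replicate 2 or 3, without the filter on low counts or when only the compared groups were fitted, with adjusted p of 0.00211 to 0.234 over all alternatives and log2 values of -0.21 with ESC WT replicate 3 left out and -0.21 with ESC MLL2dTAG replicate 3 left out. Tgfb3, a TGF-beta ligand of palate and lung development, stood at 6.76, 6.57 and 6.76 CPM in WT, 11.8, 12.7 and 9.84 CPM in dCD and 8.46, 9.19 and 10.7 CPM in MLL2dTAG in ESC. Its NPC levels were 123, 119.9 and 127 CPM in WT, 63.7, 65.6 and 62 CPM in dCD and 57, 59.2 and 56.9 CPM in MLL2dTAG. Both mutant groups lay above WT as ESC and below WT as NPC, with no overlap. Tgfb3 was 1.7-fold higher in dCD ESC (log2 fold change 0.77, SE 0.094, adjusted p = 1.72e-08) and 1.42-fold higher in MLL2dTAG ESC (log2 fold change 0.51, SE 0.093, adjusted p = 1.42e-05). It was 1.93-fold lower in dCD NPC (log2 fold change -0.95, SE 0.051, adjusted p = 1.13e-17) and 2.14-fold lower in MLL2dTAG NPC (log2 fold change -1.10, SE 0.051, adjusted p = 1.03e-19). Antisense genes share 12.4% of its exon bases.

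Of the 10 receptors, 7 were called in dCD ESC (4 higher and 3 lower), 7 in MLL2dTAG ESC (4 higher and 3 lower), 8 in dCD NPC (4 higher and 4 lower) and 9 in MLL2dTAG NPC (6 higher and 3 lower), most with less than a 2-fold change. Over all genes 48.3%, 56.9%, 53.5% and 61.7% were called in the same order. Bmpr1b, a type I BMP receptor of neural and skeletal tissue, was the receptor with the largest log2 fold changes in NPC. It stood at 2.4, 1.99 and 1.77 CPM in WT, 2.48, 2.36 and 2.54 CPM in dCD and 1.32, 0.994 and 1.15 CPM in MLL2dTAG in ESC. The NPC libraries gave 48.7, 46.1 and 44.8 CPM in WT, 17.1, 19.3 and 17.2 CPM in dCD and 9.05, 10.003 and 9.89 CPM in MLL2dTAG, ordered WT, dCD and MLL2dTAG from high to low. Bmpr1b was 2.6-fold lower in dCD NPC (log2 fold change -1.38, SE 0.07, adjusted p = 1.93e-18), 4.81-fold lower in MLL2dTAG NPC (log2 fold change -2.27, SE 0.074, adjusted p = 2.75e-24) and 1.75-fold lower in MLL2dTAG ESC (log2 fold change -0.81, SE 0.18, adjusted p = 0.000194). In dCD ESC it did not pass (log2 fold change 0.29, SE 0.16, adjusted p = 0.135). Its paralog Bmpr1a, the BMP type I receptor at the highest level per kilobase here, stood at 304 ± 3.42 CPM (SD, n = 3) in WT NPC and 356 ± 6.84 CPM in MLL2dTAG NPC, where the log2 fold change was 0.23 (SE 0.033, adjusted p = 1.68e-07). Bmpr1a also rose in dCD ESC, by 0.31 (SE 0.035, adjusted p = 3.99e-09), and in MLL2dTAG ESC, by 0.18 (SE 0.035, adjusted p = 2.87e-05). Offsets for GC content and length changed these Bmpr1a values to 0.36 in MLL2dTAG NPC, 0.20 in dCD ESC and 0.30 in MLL2dTAG ESC, and library totals gave 0.15 in MLL2dTAG NPC.

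Tgfbr2, the type II receptor that binds TGF-beta, rose in every mutant group, and its upstream sequence is the second of those shown. It stood at 5.43, 6.2 and 5.98 CPM in WT, 18.4, 16.9 and 15.1 CPM in dCD and 14.1, 14.2 and 17.2 CPM in MLL2dTAG in ESC. In NPC the values were 23.3, 24.3 and 24.1 CPM in WT, 47.1, 51.6 and 48.7 CPM in dCD and 29.8, 32.5 and 32.1 CPM in MLL2dTAG. Mutant and WT libraries did not overlap at either stage. Tgfbr2 was 2.83-fold higher in dCD ESC (log2 fold change 1.5, SE 0.097, adjusted p = 4.97e-15) and 2.58-fold higher in MLL2dTAG ESC (log2 fold change 1.37, SE 0.095, adjusted p = 1.15e-14). It was also 2.06-fold higher in dCD NPC (log2 fold change 1.04, SE 0.067, adjusted p = 1.35e-15) and 1.32-fold higher in MLL2dTAG NPC (log2 fold change 0.40, SE 0.068, adjusted p = 4.3e-06).

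Acvr2b, a type II receptor for activin, nodal and GDF11, was lower in every mutant group. It stood at 55.8, 61.4 and 56.5 CPM in WT, 43.9, 40.0 and 44.4 CPM in dCD and 42, 45.4 and 42 CPM in MLL2dTAG in ESC. As NPC it stood at 57.1, 61.7 and 55.5 CPM in WT, 31.6, 26.5 and 27.3 CPM in dCD and 37.7, 38.5 and 42.2 CPM in MLL2dTAG. All mutant libraries lay below WT of their stage. Acvr2b was 1.36-fold lower in dCD ESC (log2 fold change -0.44, SE 0.062, adjusted p = 2.8e-07) and 1.34-fold lower in MLL2dTAG ESC (log2 fold change -0.43, SE 0.061, adjusted p = 1.94e-07). In NPC the gene was 2.04-fold lower in dCD NPC (log2 fold change -1.03, SE 0.061, adjusted p = 1.49e-16) and 1.47-fold lower in MLL2dTAG NPC (log2 fold change -0.56, SE 0.059, adjusted p = 2.47e-10). The activin type I receptor gene Acvr1b fell in dCD, from 89.6 ± 3.3 to 74.8 ± 4.78 CPM in ESC and from 86.7 ± 1.65 to 60.9 ± 2.84 CPM in NPC. Its log2 fold changes there were -0.26 (SE 0.045, adjusted p = 6.16e-06) and -0.51 (SE 0.043, adjusted p = 2.11e-12). In MLL2dTAG they were 0.15 (SE 0.043, adjusted p = 0.00394) in ESC and -0.17 (SE 0.043, adjusted p = 0.00055) in NPC.

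Acvr1, a type I receptor for BMPs, rose in NPC of both lines, from 37.3 ± 0.918 CPM in WT to 49.4 ± 3.06 CPM in dCD and 58.6 ± 1.62 CPM in MLL2dTAG, with log2 fold changes of 0.41 (SE 0.054, adjusted p = 7.05e-08) and 0.65 (SE 0.054, adjusted p = 6e-13). Its fall in dCD ESC, -0.23 (SE 0.069, adjusted p = 0.00706), did not hold without ESC dCD replicate 3, with adjusted p of 0.000327 to 0.0835 over all alternatives. Tgfbr3, the TGF-beta coreceptor betaglycan, fell in dCD NPC from 43.8 ± 4.03 to 26.7 ± 0.208 CPM, a log2 fold change of -0.72 (SE 0.07, adjusted p = 5.41e-11). Acvr2a, the activin type II paralog of Acvr2b, and Tgfbr1, the TGF-beta type I receptor, had log2 fold changes of 0.39 (SE 0.048, adjusted p = 8.37e-09) and 0.33 (SE 0.035, adjusted p = 4.01e-10) in MLL2dTAG NPC. Acvr2a also rose in dCD NPC, by 0.22 (SE 0.048, adjusted p = 0.000157), and Tgfbr1 in ESC, by 0.24 (SE 0.04, adjusted p = 7.02e-06) in dCD and 0.33 (SE 0.04, adjusted p = 6.25e-09) in MLL2dTAG. With the offsets Tgfbr1 stood at 0.14 in dCD ESC. Bmpr2, the BMP type II receptor, rose in NPC by 0.40 (SE 0.047, adjusted p = 4.49e-09) in dCD and 0.26 (SE 0.047, adjusted p = 1.34e-05) in MLL2dTAG, the latter 0.39 with the offsets. In ESC its log2 fold changes were 0.16 (SE 0.053, adjusted p = 0.0141) in dCD and -0.13 (SE 0.053, adjusted p = 0.033) in MLL2dTAG, and both groups overlapped WT. The dCD ESC call of Bmpr2 did not hold without ESC WT replicate 1 or 3 or ESC dCD replicate 1 or 2 or when only the compared groups were fitted, with adjusted p of 2.08e-06 to 0.114 over all alternatives and log2 values of 0.10 with ESC WT replicate 1 left out and 0.27 with ESC WT replicate 2 left out. The MLL2dTAG ESC call of Bmpr2 did not hold without ESC WT replicate 2 or ESC MLL2dTAG replicate 1 or 2 or 3, with RLE size factors, in DESeq2, without the filter on low counts, when only the compared groups were fitted or with offsets for GC content and length, with adjusted p of 0.00289 to 0.968 over all alternatives and log2 values of -0.022 with ESC WT replicate 2 left out, and its sign turned with the offsets.

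**Figure D3:**
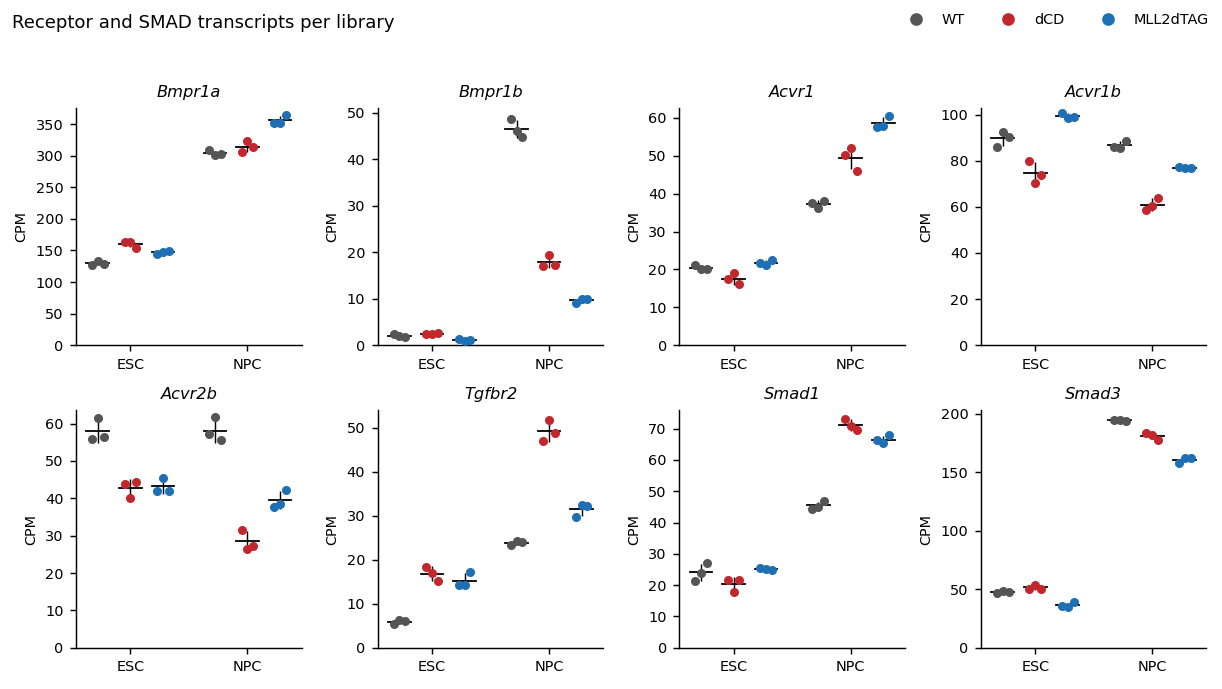
CPM of 6 receptor and 2 SMAD genes in the 3 libraries (points) of WT, dCD and MLL2dTAG as ESC (left) and NPC (right), on linear axes from 0, with the group mean (horizontal line) and SD (vertical line). Bmpr1b lies at 44.8 to 48.7 CPM in WT NPC and 9.05 to 10.003 CPM in MLL2dTAG NPC, and Tgfbr2 is above WT in every mutant group.

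The SMAD genes changed by less than 2-fold in all 4 comparisons against WT. Smad7, the inhibitory SMAD of the TGF-beta side, rose in all 4, from 49.1 ± 0.469 CPM in WT to 76.3 ± 4.28 CPM in dCD and 75.5 ± 2.15 CPM in MLL2dTAG ESC (SD, n = 3), and from 39.2 ± 1.16 to 59.2 ± 5.12 and 59.2 ± 2.4 CPM in NPC. No mutant library of Smad7 overlapped WT of its stage. Its log2 fold changes were 0.63 (SE 0.054, adjusted p = 4.2e-12) in dCD ESC, 0.62 (SE 0.053, adjusted p = 1.94e-12) in MLL2dTAG ESC, 0.59 (SE 0.053, adjusted p = 6.51e-12) in dCD NPC and 0.60 (SE 0.052, adjusted p = 3.1e-12) in MLL2dTAG NPC. Smad6, the inhibitory SMAD of the BMP side, rose in MLL2dTAG NPC, from 38 ± 2.72 to 48.7 ± 2.48 CPM, with 0.36 (SE 0.076, adjusted p = 0.000104) on the log2 scale, and the other 3 comparisons did not pass.

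Among the SMADs that receptors phosphorylate, Smad1 rose in NPC from 45.4 ± 1.26 CPM in WT to 71.2 ± 1.81 CPM in dCD and 66.5 ± 1.28 CPM in MLL2dTAG. The log2 fold changes were 0.65 (SE 0.056, adjusted p = 2.97e-12) and 0.55 (SE 0.056, adjusted p = 1.03e-10). Smad5, which acts beside it in BMP signalling, fell in dCD NPC with a log2 fold change of -0.37 (SE 0.037, adjusted p = 1.1e-10). Smad3, which serves TGF-beta and activin, fell in MLL2dTAG, with -0.38 (SE 0.044, adjusted p = 2.81e-09) in ESC and -0.27 (SE 0.036, adjusted p = 3e-08) in NPC, while Smad2, its partner, rose in MLL2dTAG NPC by 0.46 (SE 0.04, adjusted p = 3.3e-12) and in dCD NPC by 0.24 (SE 0.041, adjusted p = 5.32e-06), the latter 0.15 with the offsets. Smad4, the common partner, had log2 fold changes of 0.14 (SE 0.038, adjusted p = 0.00233) in dCD NPC and 0.16 (SE 0.038, adjusted p = 0.00033) in MLL2dTAG NPC. The MLL2dTAG call of Smad4 did not hold with library totals as the only scaling, with adjusted p of 0.000101 to 0.0758 over all alternatives.

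Several small SMAD changes were called only with some libraries or settings. In dCD ESC the call of Smad1 (-0.25 on the log2 scale) did not hold without ESC WT replicate 3 or ESC dCD replicate 2, with adjusted p of 0.000408 to 0.0935 over all alternatives and log2 values of -0.15 with ESC WT replicate 3 left out and -0.16 with ESC dCD replicate 2 left out. The call of Smad3 there (0.11) did not hold without ESC WT replicate 1 or 3 or ESC dCD replicate 2, when only the compared groups were fitted or with halved counts, with adjusted p of 0.00859 to 0.164 over all alternatives. That of Smad4 (0.11) did not hold without ESC WT replicate 1 or 3 or ESC dCD replicate 2, when only the compared groups were fitted or with offsets for GC content and length, with adjusted p of 0.000396 to 0.675 over all alternatives. The call of Smad2 (0.14) did not hold with offsets for GC content and length, with adjusted p of 0.00118 to 0.194 over all alternatives. In MLL2dTAG ESC the call of Smad5 (-0.13) did not hold without ESC WT replicate 2, without the filter on low counts or with offsets for GC content and length, with adjusted p of 0.00266 to 0.402 over all alternatives and log2 values of -0.086 with ESC WT replicate 2 left out. Smad5 in MLL2dTAG NPC (-0.087) was a call that did not hold without NPC WT replicate 1 or 2 or 3 or NPC MLL2dTAG replicate 1 or 2 or 3 or with offsets for GC content and length, with adjusted p of 4.21e-05 to 0.842 over all alternatives, and its sign turned with the offsets. Smad3 in dCD NPC (-0.10) was called but did not hold without NPC dCD replicate 3 or without the filter on low counts, with adjusted p of 0.00436 to 0.166 over all alternatives.

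The Id genes rose with differentiation in every genotype, and Id1 and Id3 were higher in both mutant lines as ESC. Id proteins bind basic helix-loop-helix factors and keep them from DNA. Id1 stood at 7.13, 7.3 and 9.58 CPM in WT, 20.7, 19.9 and 21.8 CPM in dCD and 26.9, 26.3 and 26.4 CPM in MLL2dTAG in ESC. NPC libraries held 66.2, 75.5 and 69.7 CPM in WT, 60.1, 49.7 and 48.9 CPM in dCD and 87.2, 92.2 and 87.2 CPM in MLL2dTAG. Both mutant ESC groups lay clear of WT, and in NPC dCD lay below WT and MLL2dTAG above it. Id1 was 2.57-fold higher in dCD ESC (log2 fold change 1.36, SE 0.097, adjusted p = 6.46e-14) and 3.28-fold higher in MLL2dTAG ESC (log2 fold change 1.71, SE 0.092, adjusted p = 7.93e-18). In NPC it was 1.33-fold lower in dCD (log2 fold change -0.42, SE 0.063, adjusted p = 6.96e-07) and 1.26-fold higher in MLL2dTAG (log2 fold change 0.33, SE 0.061, adjusted p = 1.21e-05).

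Id3 stood at 7.51, 6.83 and 9.41 CPM in WT, 21.5, 19.5 and 23.2 CPM in dCD and 20.3, 19.1 and 18.3 CPM in MLL2dTAG in ESC. As NPC it stood at 189, 202 and 192 CPM in WT, 253, 208 and 219 CPM in dCD and 252, 267 and 255 CPM in MLL2dTAG, with the mutant groups above WT and overlapping each other. Id3 was 2.69-fold higher in dCD ESC (log2 fold change 1.43, SE 0.097, adjusted p = 1.88e-14), 2.41-fold higher in MLL2dTAG ESC (log2 fold change 1.27, SE 0.096, adjusted p = 9.52e-14) and 1.32-fold higher in MLL2dTAG NPC (log2 fold change 0.41, SE 0.054, adjusted p = 3.61e-08). In dCD NPC its log2 fold change was 0.22 (SE 0.054, adjusted p = 0.000769) and was 0.13 without NPC dCD replicate 1, the highest of that group. Id2 went opposite ways in the NPC of the 2 lines: in ESC it rose in dCD from 14.3 ± 1.64 to 21.4 ± 0.737 CPM, and in NPC it went from 158 ± 1.88 CPM in WT to 134 ± 1.24 CPM in dCD and 203 ± 6.1 CPM in MLL2dTAG. The log2 fold changes of Id2 were 0.60 (SE 0.064, adjusted p = 7.59e-10), -0.24 (SE 0.04, adjusted p = 5.13e-06) and 0.36 (SE 0.04, adjusted p = 5.36e-10) in that order. Its lower level in MLL2dTAG ESC (-0.19) was a call that did not hold without ESC WT replicate 1 or ESC MLL2dTAG replicate 3, without the filter on low counts, when only the compared groups were fitted or with offsets for GC content and length, with adjusted p of 0.00807 to 0.381 over all alternatives and log2 values of -0.11 with ESC WT replicate 1 left out. Id4, the member of the group at the lowest level per kilobase, rose in MLL2dTAG NPC from 3.88 ± 0.342 to 7.53 ± 1.28 CPM, 0.96 (SE 0.16, adjusted p = 3.08e-06) on the log2 scale. Its call in dCD NPC (0.45) did not hold without NPC WT replicate 1 or NPC dCD replicate 2 or 3 or with offsets for GC content and length, with adjusted p of 0.00319 to 0.105 over all alternatives.

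From ESC to NPC in WT, Id3 rose by 4.61 (SE 0.079, adjusted p = 7.08e-34) on the log2 scale, Id2 by 3.48 (SE 0.052, adjusted p = 1.67e-35), Id1 by 3.12 (SE 0.084, adjusted p = 8.44e-28) and Id4 by 1.01 (SE 0.20, adjusted p = 3.37e-05). The rise of Id1 was 1.34 (SE 0.074, adjusted p = 2.27e-18) within dCD and 1.74 (SE 0.067, adjusted p = 4.88e-23) within MLL2dTAG, where the ESC level was already higher. That of Id3 was 3.40 (SE 0.068, adjusted p = 1.01e-31) and 3.75 (SE 0.066, adjusted p = 2.15e-33).

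Of the 5 secreted antagonists, 4 rose in the NPC of both lines, and Cer1 did not pass the test there. In ESC, 2 rose and 1 fell in dCD, and 3 rose and 1 fell in MLL2dTAG. The shares called were 60% in dCD ESC, 80% in MLL2dTAG ESC, 80% in dCD NPC and 80% in MLL2dTAG NPC. Over all genes 48.3%, 56.9%, 53.5% and 61.7% were called in the same order. Grem1 (chr2:113746164-113758646, minus strand, GRCm38) encodes gremlin 1, which binds BMP2, BMP4 and BMP7, and its upstream sequence is the first of those shown. It stood at 25, 25.1 and 25.4 CPM in WT, 85.5, 89.1 and 77.8 CPM in dCD and 99.1, 96.3 and 99.3 CPM in MLL2dTAG in ESC. After differentiation it stood at 0.696, 0.799 and 1.51 CPM in WT, 9.02, 10.1 and 9.71 CPM in dCD and 3.26, 2.65 and 3.03 CPM in MLL2dTAG. No mutant library overlapped WT, and the 2 lines differed from each other at both stages. Grem1 was 3.34-fold higher in dCD ESC (log2 fold change 1.74, SE 0.067, adjusted p = 7.24e-21) and 3.9-fold higher in MLL2dTAG ESC (log2 fold change 1.96, SE 0.066, adjusted p = 1.77e-23). In NPC it was 9.51-fold higher in dCD (log2 fold change 3.25, SE 0.14, adjusted p = 1.63e-20) and 2.92-fold higher in MLL2dTAG (log2 fold change 1.55, SE 0.17, adjusted p = 1.15e-09).

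Fst encodes follistatin, which binds activins. It stood at 3.41, 3.25 and 4.11 CPM in WT, 8.96, 10.6 and 8.46 CPM in dCD and 5.35, 4.75 and 5.2 CPM in MLL2dTAG in ESC. As NPC it stood at 19.8, 18.5 and 17.5 CPM in WT, 23.6, 26.1 and 26.1 CPM in dCD and 78.4, 88 and 80.3 CPM in MLL2dTAG, with MLL2dTAG far above the others. Fst was 2.58-fold higher in dCD ESC (log2 fold change 1.37, SE 0.12, adjusted p = 5.12e-12) and 1.41-fold higher in MLL2dTAG ESC (log2 fold change 0.50, SE 0.12, adjusted p = 0.000887). Its NPC level was 1.36-fold higher in dCD NPC (log2 fold change 0.45, SE 0.071, adjusted p = 1.74e-06) and 4.43-fold higher in MLL2dTAG NPC (log2 fold change 2.15, SE 0.067, adjusted p = 5.54e-25). Nog encodes noggin, a BMP antagonist of the neural midline, and spanned 0.104 to 0.663 CPM in ESC. The 3 NPC groups gave 1.65, 2.18 and 1.96 CPM in WT, 5.49, 4.91 and 4.37 CPM in dCD and 6.14, 6.32 and 5.09 CPM in MLL2dTAG, with both mutant groups above WT. Nog was 2.54-fold higher in dCD NPC (log2 fold change 1.34, SE 0.19, adjusted p = 1.91e-07) and 3.02-fold higher in MLL2dTAG NPC (log2 fold change 1.59, SE 0.19, adjusted p = 2.77e-09). In MLL2dTAG ESC its level was called lower, -1.56 (SE 0.48, adjusted p = 0.00607) on the log2 scale, with libraries that overlapped WT.

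Chrd, which encodes the BMP antagonist chordin, rose in dCD NPC from 5.75 ± 0.116 to 10.3 ± 0.995 CPM, in MLL2dTAG NPC to 8.68 ± 1.04 CPM, and in MLL2dTAG ESC from 5.34 ± 0.267 to 9.26 ± 0.984 CPM. Its log2 fold changes were 0.84 (SE 0.11, adjusted p = 2.5e-08), 0.59 (SE 0.11, adjusted p = 1.26e-05) and 0.80 (SE 0.12, adjusted p = 2.64e-07). Cer1, which encodes the nodal and BMP antagonist cerberus, was under 0.55 CPM in every library, with 2 counts or fewer in each NPC group. In dCD ESC it had 6 counts against 34 in WT ESC, and the log2 fold change of -2.36 (SE 0.77, adjusted p = 0.0112) was a call that did not hold without ESC dCD replicate 3, with adjusted p of 0.00717 to 0.0868 over all alternatives.

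The mesenchymal markers also moved in ESC. The 9 genes listed summed to 470.5 to 585 CPM in WT, 755 to 845 CPM in dCD and 843 to 899 CPM in MLL2dTAG ESC, with 7 of 8 tested called higher and 1 lower in dCD and 6 of 8 tested called higher and 2 lower in MLL2dTAG. Mesp1 had no count in dCD ESC and was under 1 CPM in every group. In NPC the sums were 694 to 714 CPM in WT, 888 to 974 CPM in dCD and 1034 to 1049 CPM in MLL2dTAG, with 5 of 8 tested called higher and 1 lower in dCD and 3 of 8 tested called higher and 4 lower in MLL2dTAG. Col3a1 made up most of the MLL2dTAG NPC sum, at 716 CPM against 295 CPM in WT NPC, while Col1a1 stood at 99.8 against 156 CPM, Col1a2 at 21.3 against 153 CPM and Prrx1 at 3.5 against 10.3 CPM. The 8 neural progenitor genes summed to 155 to 158 CPM in WT NPC, 337 to 371 CPM in dCD NPC and 217 to 219.6 CPM in MLL2dTAG NPC, with 6 of 8 tested called higher and 0 lower in dCD and 3 of 8 tested called higher and 1 lower in MLL2dTAG. The 6 neural crest genes summed to 66.4 to 72.4 CPM, 139.9 to 145 CPM and 122 to 123 CPM in the same order, with 3 of 6 tested called higher and 0 lower in dCD and 5 of 6 tested called higher and 0 lower in MLL2dTAG. Sox10 was under 1 CPM in all 3. Ets1 was the largest part of each neural crest sum, at 30.8, 92.6 and 68.3 CPM in the same order, while Tfap2b stood at 12.7, 17.3 and 11.6 CPM. Nes was the largest part of each neural progenitor sum, at 91.2, 231 and 156 CPM. The 6 neuron genes summed to 259 to 263 CPM in WT NPC, 393 to 424 CPM in dCD NPC and 256 to 269.9 CPM in MLL2dTAG NPC, with 4 of 6 tested called higher and 0 lower in dCD and 3 of 6 tested called higher and 1 lower in MLL2dTAG. Among the neuron genes, Stmn2 stood at 25.7 CPM in WT NPC, 93.9 CPM in dCD NPC and 30.55 CPM in MLL2dTAG NPC. The part of cells of these types in the changes of Grem1, Inhba, Tgfb1, Tgfb2, Tgfbr2 and the other members was not tested.

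**Figure D4:**
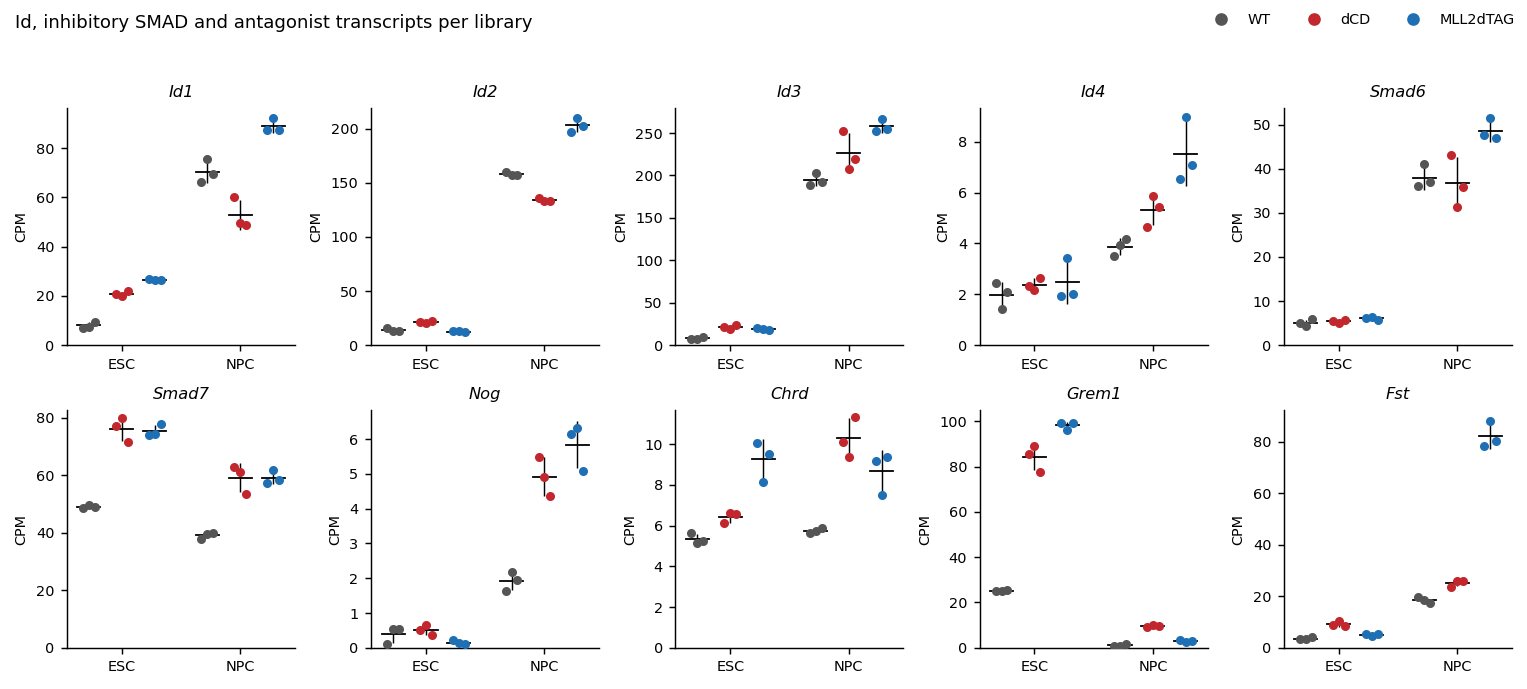
CPM of the 4 Id genes, the inhibitory Smad6 and Smad7 and 4 antagonist genes in the 3 libraries (points) of WT, dCD and MLL2dTAG as ESC (left) and NPC (right), on linear axes from 0, with the group mean (horizontal line) and SD (vertical line). Grem1 lies at 77.8 to 99.3 CPM in the mutant ESC against 25 to 25.4 CPM in WT, Fst lies at 78.4 to 88 CPM in MLL2dTAG NPC, and Smad7 lies above WT in every mutant group.

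Whether a line's change depended on the stage was tested as its change in NPC minus its change in ESC. For dCD 29 of 44 members were called, 13 above 0 and 16 below, where 42.9% of all genes were called. For MLL2dTAG 28 members were called, 18 above 0 and 10 below, against 49% of all genes. In dCD, the difference was 1.96 (SE 0.18, adjusted p = 1.79e-11) for Tgfb1 and 1.51 (SE 0.17, adjusted p = 3.74e-09) for Grem1, whose changes were larger in NPC. For Id1 and Tgfb3, which rose in dCD ESC and fell in dCD NPC, it was -1.78 (SE 0.12, adjusted p = 6.46e-15) and -1.72 (SE 0.11, adjusted p = 1.68e-15). In MLL2dTAG, Lefty1 and Lefty2 had 3.82 (SE 0.23, adjusted p = 3.05e-16) and 3.96 (SE 0.22, adjusted p = 2.57e-17), Bmp4 had -2.21 (SE 0.087, adjusted p = 2.61e-21) and Fst had 1.65 (SE 0.15, adjusted p = 8.39e-12). The Y-linked Eif2s3y also differed between the stages of this line, at 2.85 CPM in ESC and 0.118 CPM in NPC, against 77.6 and 64.5 CPM in WT. The stages of MLL2dTAG may thus differ in their cells, and the part of this in its stage differences was not tested.

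**Figure D5:**
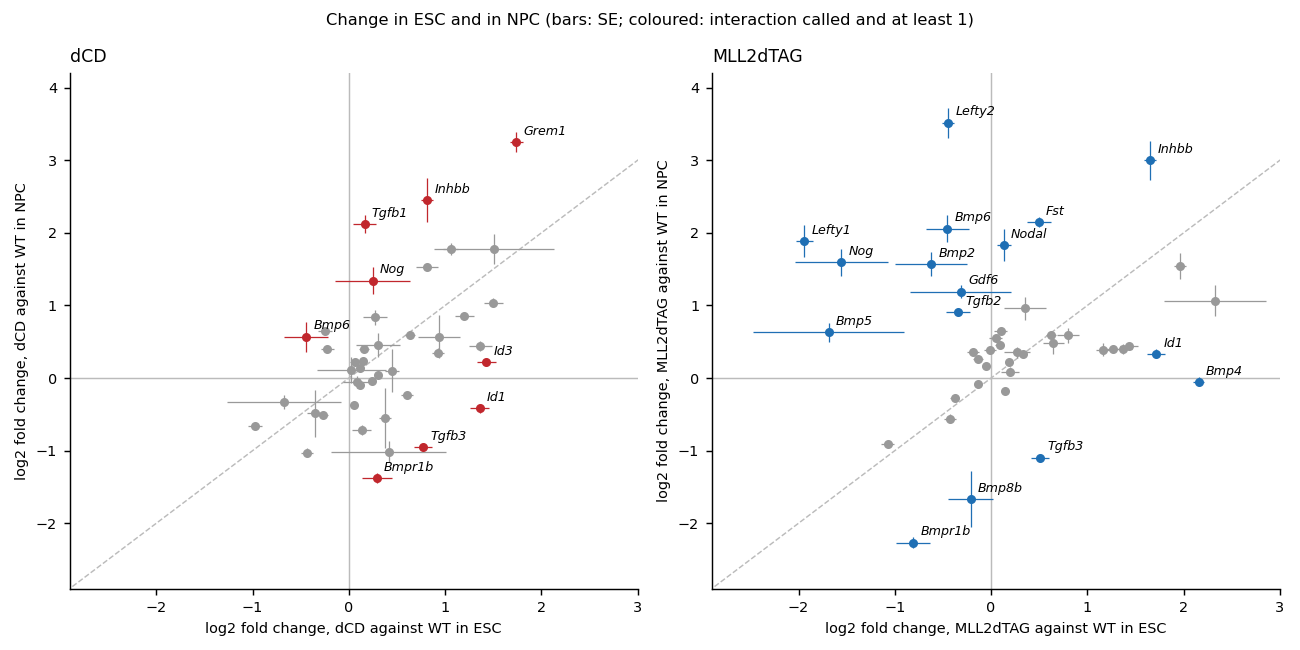
Log2 fold change against WT in ESC (horizontal) and in NPC (vertical) for 42 members in dCD (left) and MLL2dTAG (right), with SE bars; the dashed line marks equal change, and Bmp3 and Cer1 are left out for lack of counts. Coloured, named points have a called difference between stages of at least 1 on the log2 scale: Grem1, Inhbb and Tgfb1 lie above the line in dCD, and in MLL2dTAG Lefty1 and Lefty2 lie farthest above the line and Bmp4 farthest below.

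The 2 mutant lines also differed from each other. Directly compared, 27 of 44 members were called between MLL2dTAG and dCD ESC, 11 higher and 16 lower in MLL2dTAG, against 47.2% of all genes. In NPC 39 were called, 23 higher and 16 lower, against 55.9% of all genes. As ESC, MLL2dTAG had more Bmp4, 1.23 (SE 0.055, adjusted p = 6.45e-20) on the log2 scale, and more Inhbb, 0.84 (SE 0.059, adjusted p = 2.25e-14). It had less Lefty1, -1.59 (SE 0.09, adjusted p = 7.29e-17), and less Tgfb2, -1.16 (SE 0.11, adjusted p = 1.11e-10). As NPC, MLL2dTAG had more Lefty2, 4.07 (SE 0.23, adjusted p = 2.2e-17), and more Fst, 1.70 (SE 0.064, adjusted p = 2.22e-22). It had less Bmp3, -5.86 (SE 0.18, adjusted p = 9.03e-23), Grem1, -1.70 (SE 0.11, adjusted p = 7.5e-16), and Tgfb1, -1.65 (SE 0.12, adjusted p = 2.73e-14). The ESC split turned to 16 higher and 12 lower with offsets for GC content and length, which moved the median of all genes from -0.009 to 0.098.

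Other genes of the pathway were read from 5 lists of 88 symbols, of which 81 were tested. In dCD ESC 51 were called (63%, against 48.3% of all genes), 34 higher and 17 lower, and in MLL2dTAG ESC 56 (69.1%, against 56.9%), 34 higher and 22 lower. In dCD NPC 54 were called (66.7%, against 53.5%), 39 higher and 15 lower, and in MLL2dTAG NPC 65 (80.2%, against 61.7%), 49 higher and 16 lower. The lists did not all split this way: in MLL2dTAG ESC the targets list had 4 higher and 7 lower, and the list of other receptors and coreceptors 2 higher and 5 lower. The median log2 fold changes were 0.12, 0.12, 0.27 and 0.48 in that order. In dCD, 16 genes of the antagonist, processing and matrix binding list were higher and 4 lower of 26 at each stage (76.9%), and 4 of the other receptors and coreceptors were higher and 3 lower of 9 (77.8%).

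On the nodal side, Tdgf1, the nodal coreceptor, rose in MLL2dTAG NPC from 1.51 ± 0.241 to 31.3 ± 1.25 CPM (log2 fold change 4.36, SE 0.091, adjusted p = 5.93e-30). Foxh1, which encodes a DNA-binding partner of SMAD2 and SMAD3, rose there from 0.388 ± 0.0797 to 2.52 ± 0.661 CPM (log2 fold change 2.71, SE 0.24, adjusted p = 2.38e-12), and the ligand gene Gdf3 from 0.0389 ± 0.034 to 1.66 ± 0.341 CPM (log2 fold change 5.32, SE 0.43, adjusted p = 2.96e-13). Like Nodal and the lefty genes, these 3 are known as transcripts of stem cells. The part of such cells in the values of Tdgf1, Foxh1 and Gdf3 was not tested. In dCD NPC, Eng, the TGF-beta coreceptor endoglin, rose from 3.51 ± 0.272 to 26.1 ± 1.29 CPM (log2 fold change 2.89, SE 0.082, adjusted p = 9.39e-26) and the anti-Müllerian hormone receptor gene Amhr2 fell from 4.46 ± 0.272 to 0.843 ± 0.333 CPM (log2 fold change -2.38, SE 0.20, adjusted p = 1e-12). Skil, a corepressor and feedback target of TGF-beta SMADs, fell in dCD ESC from 399 ± 19.1 to 263 ± 1.75 CPM (log2 fold change -0.60, SE 0.034, adjusted p = 1.02e-16) and in MLL2dTAG ESC from 399 ± 19.1 to 227 ± 2.61 CPM (log2 fold change -0.81, SE 0.034, adjusted p = 5.61e-21). Ltbp2, whose product binds matrix beside the latent TGF-beta binding proteins, rose in dCD NPC from 1.03 ± 0.18 to 6.66 ± 0.497 CPM (log2 fold change 2.68, SE 0.15, adjusted p = 6.3e-17) and in MLL2dTAG NPC from 1.03 ± 0.18 to 5.39 ± 0.207 CPM (log2 fold change 2.37, SE 0.16, adjusted p = 2.06e-15). Fbn1, which encodes the fibrillin that holds latent TGF-beta and BMPs in the matrix, fell in MLL2dTAG NPC from 103 ± 3.47 to 20.2 ± 1.95 CPM (log2 fold change -2.36, SE 0.07, adjusted p = 1.23e-25). Among transcripts commonly read as targets, T, which is also among the mesoderm markers, rose in dCD ESC from 4.08 ± 0.498 to 15.5 ± 1.25 CPM (log2 fold change 1.92, SE 0.19, adjusted p = 2.78e-10). In the same list Tbx3 rose in MLL2dTAG ESC from 53.3 ± 2.82 to 128 ± 3.54 CPM (log2 fold change 1.26, SE 0.042, adjusted p = 1.11e-23) and Msx1 fell in MLL2dTAG NPC from 37 ± 0.489 to 16.9 ± 1.03 CPM (log2 fold change -1.13, SE 0.077, adjusted p = 4.13e-15). Further genes chosen by the same rule had log2 fold changes in dCD ESC of Bmp1 0.78 (adjusted p = 5.71e-14), Gdf15 -0.94 (adjusted p = 0.000294), Rgma 1.08 (adjusted p = 2.17e-10), Amhr2 -0.43 (adjusted p = 0.0172), Zeb2 1.30 (adjusted p = 2.77e-15), Fbn2 1.89 (adjusted p = 5.44e-16), Dand5 -0.54 (adjusted p = 0.0358) and Hey1 -1.24 (adjusted p = 2.77e-10). In MLL2dTAG ESC they were Bmp8a 2.64 (adjusted p = 8.03e-10), Acvrl1 1.22 (adjusted p = 1.82e-08), Amhr2 -0.42 (adjusted p = 0.0141), Zeb1 1.23 (adjusted p = 8.96e-21), Bmper 1.61 (adjusted p = 5.66e-10) and Chrdl1 -4.17 (adjusted p = 8.29e-06). In dCD NPC they were Bmp8a 3.69 (adjusted p = 2.29e-07), Inha -0.45 (adjusted p = 0.0016), Zeb2 1.37 (adjusted p = 1.11e-22), Smad9 -0.55 (adjusted p = 7e-08), Ltbp1 -0.34 (adjusted p = 2.19e-09), Eomes 2.93 (adjusted p = 6.07e-09) and Hey1 -0.89 (adjusted p = 1.01e-11). In MLL2dTAG NPC they were Inha -0.40 (adjusted p = 0.00355), Rgma -0.22 (adjusted p = 0.00206), Zfyve16 -0.22 (adjusted p = 0.000615) and Eomes 2.40 (adjusted p = 6.96e-07). Of these, the call of Amhr2 in dCD ESC did not hold without ESC WT replicate 2 or ESC dCD replicate 2, with adjusted p of 0.00784 to 0.0901 over all alternatives. In MLL2dTAG ESC the call of Amhr2 did not hold without ESC WT replicate 2 or ESC MLL2dTAG replicate 2, with adjusted p of 0.00524 to 0.145 over all alternatives and log2 values of -0.27 with ESC MLL2dTAG replicate 2 left out. The call of Dand5 in dCD ESC did not hold without ESC WT replicate 1 or 2 or ESC dCD replicate 2 or 3, without the filter on low counts, when only the compared groups were fitted or with halved counts, with adjusted p of 0.0326 to 0.164 over all alternatives. In MLL2dTAG NPC the call of Rgma did not hold with offsets for GC content and length, with adjusted p of 1.85e-06 to 0.223 over all alternatives, and that of Zfyve16 did not hold with offsets for GC content and length, with adjusted p of 2.33e-08 to 0.169 over all alternatives. Bmp8a and Eomes were low in the NPC groups compared. Bmp8a stood at 0.0621 CPM in WT NPC and 0.908 CPM in dCD NPC. Eomes stood at 0.175 CPM in WT NPC, 1.33 CPM in dCD NPC and 0.936 CPM in MLL2dTAG NPC. All WT NPC counts of Bmp8a lay in replicate 2, and without it the fitted value in dCD NPC was 7.85. Chrdl1 in MLL2dTAG ESC rests on 2 counts, both in replicate 2, and the ratio to WT was 0.0471 with an exact 95% interval for counts of 0.00549 to 0.184. Without that library its fitted value was -6.81, and both fitted values then depend on the prior count.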

How the data were processed

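The authors deposited read counts per gene symbol, whole numbers with no normalization. Library preparation used a TruSeq Stranded mRNA kit, per the labels, and HTSeq was used, per the submitters' processing notes. The aligner, genome build and strand setting are not given in the sources used here. Columns were matched to samples by name, and 18 columns whose names match no single sample were not used. Counts from 1 to 10 were even in 60.8% to 66.5% of cases, against 48.9% to 50.4% of counts over 1000, so halved counts were tried.

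Counts were fitted in R 4.3.3 with edgeR 4.0.16 (filterByExpr by group, TMM factors 0.967 to 1.048, 1 mean per group over 18 libraries, 12 residual degrees of freedom, common dispersion 0.00161). The quasi-likelihood F test was two-sided and adjusted by Benjamini-Hochberg over 20511 genes, with calls at 0.05. CPM use TMM factors and are means with SD of 3 libraries. SE is the absolute log2 fold change over the root of F. A group without counts was set to 3 counts over the group, and such floors and intervals cover counting error only. Exon lengths and positions come from GENCODE M21 (GRCm38). The procedure was also run on data simulated from its own fitted spread, in which few genes changed. Many genes are called in the real data, so that run cannot check the calls made here. Alternatives were RLE size factors, library totals, DESeq2 1.42.0, no filter, only the compared groups, a replicate block, halved counts, each library left out and, chosen after seeing the data, offsets for GC content and length.

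The members, lists and markers were chosen with earlier results of these data known. CPM per library are given for the 25 members called with an absolute log2 fold change of 1 or more in a comparison with WT and a mean of 5 CPM or more in a group. Named genes of the 5 other pathway lists are, per list and comparison with WT, the called genes with the highest and lowest log2 fold change among those with a mean of 5 CPM or more in a group. That group need not be one of those compared. One of these values is not reported here.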

Additional observations from a re-analysis of the deposited data

Results flagged for a closer look

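The 26 values below are differences between stages: the log2 fold change of a line against WT in NPC minus that in ESC, from an interaction term in edgeR's quasi-likelihood model with 3 libraries in each of the 4 groups. They are those with an adjusted p under 0.05 and an absolute value of at least 1, 10 in dCD and 16 in MLL2dTAG.

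In dCD, the change was higher in NPC for Bmp3, 8.23 (SE 2.24, adjusted p = 0.00318), Tgfb1, 1.96 (SE 0.18, adjusted p = 1.79e-11), Inhbb, 1.64 (SE 0.32, adjusted p = 5.97e-05), Grem1, 1.51 (SE 0.17, adjusted p = 3.74e-09), Nog, 1.09 (SE 0.44, adjusted p = 0.0439), and Bmp6, 1.01 (SE 0.31, adjusted p = 0.00722). It was lower in NPC for Id1, -1.78 (SE 0.12, adjusted p = 6.46e-15), Tgfb3, -1.72 (SE 0.11, adjusted p = 1.68e-15), Bmpr1b, -1.67 (SE 0.18, adjusted p = 7.33e-10), and Id3, -1.21 (SE 0.11, adjusted p = 3.91e-11). The value of Bmp3 rests on 2 counts in WT ESC and none in dCD ESC, so its size is set by the prior count of the fit, and the call did not hold without ESC WT replicate 3, with adjusted p of 3.09e-05 to 1 over all alternatives and log2 values of 5.32 with ESC WT replicate 3 left out. The call of Nog did not hold without ESC WT replicate 2 or 3 or ESC dCD replicate 1 or 3 or NPC WT replicate 1 or 3 or NPC dCD replicate 1 or 2, without the filter on low counts, when only the compared groups were fitted or with halved counts, with adjusted p of 0.00551 to 0.207 over all alternatives.

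In MLL2dTAG, the change was higher in NPC for Lefty2, 3.96 (SE 0.22, adjusted p = 2.57e-17), Lefty1, 3.82 (SE 0.23, adjusted p = 3.05e-16), Nog, 3.15 (SE 0.52, adjusted p = 3.42e-06), Bmp6, 2.51 (SE 0.29, adjusted p = 3.39e-09), Bmp5, 2.32 (SE 0.80, adjusted p = 0.0155), and Bmp2, 2.20 (SE 0.41, adjusted p = 2.74e-05). It was higher too for Nodal, 1.70 (SE 0.24, adjusted p = 1.8e-07), Fst, 1.65 (SE 0.15, adjusted p = 8.39e-12), Gdf6, 1.5 (SE 0.55, adjusted p = 0.022), Inhbb, 1.35 (SE 0.31, adjusted p = 0.000364), and Tgfb2, 1.25 (SE 0.14, adjusted p = 1.78e-09). It was lower in NPC for Bmp4, -2.21 (SE 0.087, adjusted p = 2.61e-21), Tgfb3, -1.61 (SE 0.11, adjusted p = 3.85e-15), Bmpr1b, -1.46 (SE 0.20, adjusted p = 1.31e-07), Bmp8b, -1.46 (SE 0.45, adjusted p = 0.00761), and Id1, -1.38 (SE 0.11, adjusted p = 8.03e-13). The call of Bmp5 did not hold without ESC WT replicate 2 or ESC MLL2dTAG replicate 1 or 2, with adjusted p of 0.000645 to 0.12 over all alternatives and log2 values of 5.82 with ESC MLL2dTAG replicate 3 left out. The call of Gdf6 did not hold without ESC WT replicate 1 or 2 or ESC MLL2dTAG replicate 2 or 3 or with halved counts, with adjusted p of 0.00166 to 0.426 over all alternatives and log2 values of 0.76 with ESC WT replicate 2 left out. The call of Bmp8b did not hold without NPC MLL2dTAG replicate 2, with adjusted p of 0.00266 to 0.0771 over all alternatives and log2 values of -0.92 with NPC MLL2dTAG replicate 2 left out.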

How the results depend on the processing

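The number of members called stayed within 1.5 times its main value in all 11 comparisons under every alternative run, a wide limit for 44 members. In MLL2dTAG ESC it was 28 in the main fit, 23 when only the compared groups were fitted and 30 in DESeq2. Without the filter it was again 28 there, of which 24 were shared with the main fit. With 1 library left out it ran from 25 to 30 in dCD ESC, 26 to 29 in MLL2dTAG ESC, 34 to 35 in dCD NPC and 40 to 41 between the WT stages, and it was 39 in MLL2dTAG NPC. Of 6036 values of single members under an alternative, 5848 kept their direction and side of the threshold, 128 lost a call, 52 gained one and 8 turned. Of 545 values of the pathway genes chosen by rule, 532 kept both, 13 lost a call and none turned. All 8 members' values that turned did so with the offsets for GC content and length: Bmpr2 in MLL2dTAG ESC (0.0024), Smad5 in MLL2dTAG NPC (0.0083), Smad2 between NPC and ESC in WT (-0.23) and in dCD (-0.15), Bmpr1a (0.094), Acvr2a (0.14) and Smad2 (0.12) between MLL2dTAG and dCD ESC, and Bmpr2 between MLL2dTAG and dCD NPC (0.078). With those offsets Bmpr2 in WT went from 1.19 to 0.49 between the stages. Over all genes, the split of calls between MLL2dTAG and dCD went from 4803 higher and 4869 lower to 6998 and 3550 with the offsets in ESC, and from 6487 and 4986 to 4965 and 5986 with library totals in NPC. The split for the MLL2dTAG difference between stages went from 5417 above 0 and 4626 below to 4225 and 5416 without the filter. Replicate numbers did not pair the samples: deviations from group means correlated at -0.028 to 0.032 over 45 same-numbered pairs, and with a replicate block 30 members were called in dCD ESC, 28 in MLL2dTAG ESC, 35 in dCD NPC and 40 in MLL2dTAG NPC, as without it. WT ESC replicate 2 stood apart from its group. Chi-square per degree of freedom between libraries of a group was 10.5 and 8.42 for its pairs and 2.185 to 4.436 for all others. Without it, 30 members were called in dCD ESC and 28 in MLL2dTAG ESC, of which 29 and 26 were shared with the main fit. Depth limited Bmp3, Cer1 and Gdf7 in ESC or NPC, where groups held 3 counts or fewer.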
